A study of Saccharomyces cerevisiae with 9 samples.

Results

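The yeast vacuole breaks proteins down with a small set of peptidases, and 9 genes for these enzymes and for their cytosolic inhibitors are described here across substitutions of lysine 42 of histone H3. The 9 genes were taken by name: PEP4 (YPL154C), PRB1 (YEL060C), PRC1 (YMR297W), CPS1 (YJL172W), APE1 (YKL103C) and APE3 (YBR286W) for the peptidases, and PBI2 (YNL015W), TFS1 (YLR178C) and PAI3 (YMR174C) for the inhibitors. They are 9 of 5449 genes with a probe set on the array, each with 1 probe set, and 8 of them were bright enough to be tested among 4087 genes. PAI3 was too dim and is given by its signals.

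RNA came from 9 log-phase cultures of Saccharomyces cerevisiae strain JPY12 in rich YPD medium, with 1 Affymetrix array per culture. In every culture histone H3 was expressed from the plasmid pEMH7. The plasmid H3 carried alanine (K42A, n = 2), glutamine (K42Q, n = 2) or leucine (K42L, n = 2) in place of lysine 42, or the wild-type sequence (wild type, n = 3). The state of the chromosomal H3 genes is not given in the sources used here, nor whether the cultures of a strain came from more than 1 transformant, so the p-values measure only the spread between cultures.

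In the vacuole, proteinase A, the product of PEP4, starts a cascade. It activates its own precursor and that of proteinase B (PRB1), and the pair then trim carboxypeptidase Y (PRC1) and the aminopeptidases into their active forms. Most of these enzymes reach the vacuole through the secretory pathway, while aminopeptidase I (APE1) is carried there from the cytosol by the autophagy machinery. The 3 inhibitors are known as cytosolic proteins, and each blocks 1 of these enzymes: Pbi2 blocks proteinase B, Tfs1 blocks carboxypeptidase Y and Pai3 blocks proteinase A. Genes of the set are known to be expressed more strongly as cells leave rapid growth on glucose.

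The arrays scaled to a common trimmed mean of 150.1, and their number limits the precision of each value. The median signal of probe sets for another yeast species, which measures background, put them in 2 batches that the labels do not name. That median was 2.2 to 2.7 on the K42A arrays and wild-type replicates 2 and 3, and 1 to 1.3 on the K42Q and K42L arrays and wild-type replicate 1. Values within the batch therefore set K42A against 2 wild-type arrays, and K42Q and K42L against 1. Genes specific to haploid a cells (6 of 6) were above background on all arrays. Their summed signal was 3629 to 3787 in K42A, 3757 to 4342 in K42Q, 5374 to 5703 in K42L and 5005 to 6071 in wild type. The sum hides ASG7, which was higher in K42A (194 and 218) than in wild type (131, 93.3 and 91.2). STE2, MFA1, MFA2, BAR1 and STE6 were lower in K42A. The summed signal of 4 genes specific to alpha cells was 335.5 to 369 in K42A, 257 to 283 in K42Q, 153 to 158 in K42L and 170.0 to 212 in wild type. None of these 4 was at 0. The dimmest signal was 4.8, of MF(ALPHA)1 on wild-type replicate 3, below the 95th percentile of background there (8.8). SAG1 made up most of the sum, and the others were too dim to be tested. Of 5 meiosis genes, all too dim to be tested, the sum was 279.6 to 289.7 in K42A, 220.0 to 249.7 in K42Q, 147.5 to 147.6 in K42L and 136 to 144 in wild type. The part of these markers in the results below was not tested, and in such whole cultures a change in the share of cells that express a gene and a change in RNA per cell cannot be told apart.

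The members did not move as a block. TFS1 and APE1 rose in both K42A and K42Q, and PRB1 rose in both by less. PBI2 rose in K42Q and not in K42A. PEP4, PRC1 and CPS1 rose by small amounts in K42Q, and APE3 passed no test with the deposited scaling. Changes are log2 differences with SE, from limma fitted over all 9 arrays. Calls were made where the Benjamini-Hochberg adjusted p over the 4087 genes lay under 0.05. The 3 mutants were set against the same 3 wild-type arrays, so these comparisons are not independent of each other.

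**Figure D1:**
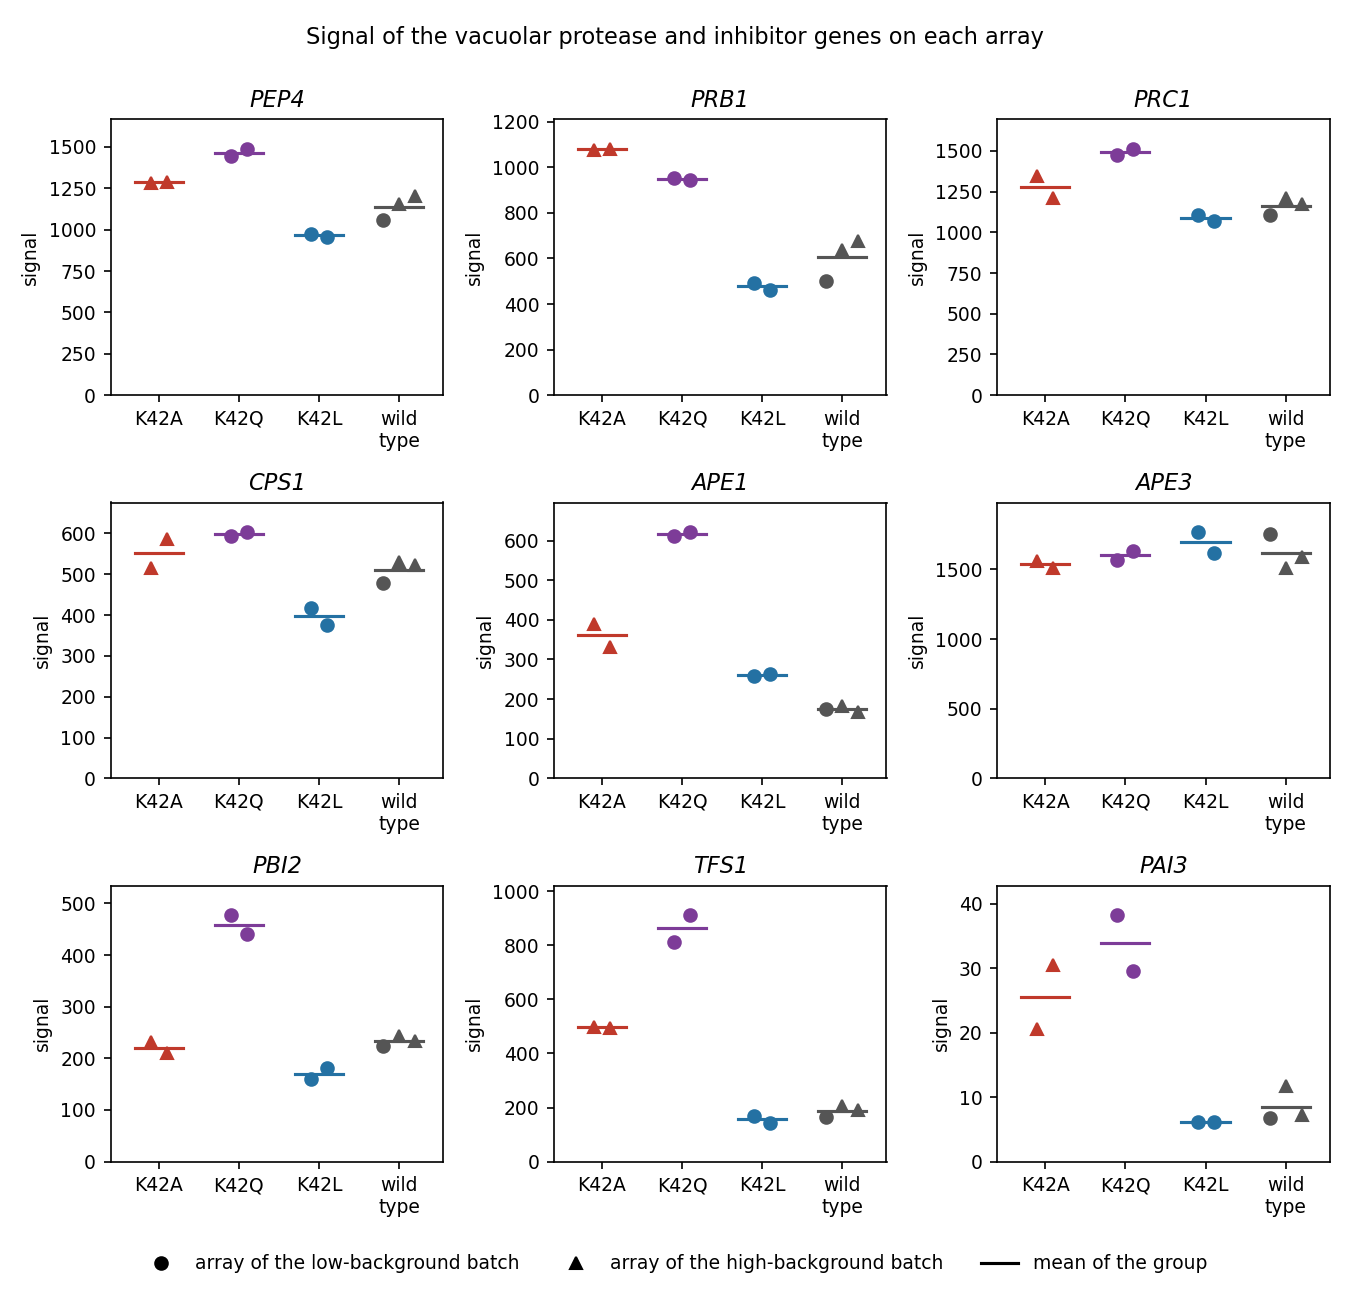
Signal of each of the 9 genes (vertical axes, linear array signal from 0) on each array, by group; circles and triangles mark the low-background and high-background batches and bars the group means. TFS1 and APE1 lie above wild type on all K42A and K42Q arrays, PBI2 is high on the 2 K42Q arrays alone (441 and 477), and APE3 overlaps between each mutant and wild type.

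Among the enzymes at the head of the cascade, PRB1 had a signal of 1078 and 1081 in K42A, 951 and 947 in K42Q, 492 and 462 in K42L, and 501, 639 and 677 in wild type. Both K42A and K42Q arrays lay above all wild-type arrays, both K42L arrays lay below them, and the wild-type arrays themselves differed between batches. PRB1 rose by 0.85 ± 0.11 in K42A (SE, n = 2 against 3; limma adjusted p = 0.000511), which is 1.80-fold with a 95% confidence interval of 1.51 to 2.14. It rose by 0.66 ± 0.11 in K42Q (adjusted p = 0.0019), or 1.58-fold (1.32 to 1.89). With spike-in controls scaled across the batches the K42Q value was 0.23 and was not called (limma adjusted p = 0.666). Within the batch the values were 0.71 in K42A and 0.92 in K42Q, so which of these mutants showed the larger value depended on the wild-type arrays used. The direct difference, K42A minus K42Q, was 0.19 ± 0.12 and was not called (adjusted p = 0.305). Without wild-type replicate 1 the difference was called at the same 0.19, with a smaller SE of 0.06 (adjusted p = 0.0249). Blocked on batch it turned to -0.21 (adjusted p = 0.138). In K42L the value was -0.33 ± 0.11 (adjusted p = 0.194), and -0.07 against the single wild-type array of the batch.

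PEP4, for proteinase A, had 1282 and 1290 in K42A, 1444 and 1488 in K42Q, 974 and 957 in K42L, and 1057, 1155 and 1204 in wild type. The groups did not overlap, in the order K42Q, K42A, wild type, K42L. The rise in K42Q was 0.37 ± 0.07 (limma adjusted p = 0.00368), or 1.29-fold. The values of 0.18 ± 0.07 in K42A (adjusted p = 0.0733) and -0.24 ± 0.07 in K42L (adjusted p = 0.167) did not pass. In K42A the call depended on the scaling of the arrays: PEP4 was called at 0.42 with quantile scaling, at 0.39 with cyclic loess and at 0.33 with spike-ins scaled inside each batch.

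The carboxypeptidase genes moved little. PRC1, for carboxypeptidase Y, had 1345 and 1210 in K42A, 1475 and 1513 in K42Q, 1107 and 1073 in K42L, and 1104, 1209 and 1172 in wild type. Only the K42Q arrays stood clear of wild type, and the lower K42A array exceeded the highest wild-type array by a margin far smaller than the gap between the K42A arrays. PRC1 rose by 0.36 ± 0.07 in K42Q (adjusted p = 0.00442) and was at 0.14 ± 0.07 in K42A (adjusted p = 0.163) and -0.09 ± 0.07 in K42L (adjusted p = 0.545). Like PEP4, it was called in K42A under quantile (0.37), cyclic loess (0.35) and within-batch spike-in scaling (0.29).

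CPS1, for carboxypeptidase S, had 516 and 586 in K42A, 594 and 603 in K42Q, 417 and 377 in K42L, and 478, 530 and 521 in wild type. K42Q arrays were the highest and K42L arrays the lowest, and K42A overlapped wild type. The rise in K42Q, 0.23 ± 0.08, passed narrowly (adjusted p = 0.045), and 11 of 24 alternatives lost the call. It ended with median centring (0.19, adjusted p = 0.086), no intensity trend (adjusted p = 0.0585), the compared groups alone (adjusted p = 0.0584) and the replicate block (adjusted p = 0.0945), and its sign turned with spike-ins across the batches (-0.20, adjusted p = 0.721). It also ended without wild-type replicate 2 (0.26, adjusted p = 0.057), without wild-type replicate 3 (0.25, adjusted p = 0.0747), without either K42Q array (adjusted p = 0.152 and 0.177) and without either K42L array (adjusted p = 0.0592 and 0.0591). It held within the batch (0.32, adjusted p = 0.00617). CPS1 was at 0.11 ± 0.08 in K42A and at -0.36 ± 0.08 in K42L (adjusted p = 0.291 and 0.0933).

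The aminopeptidase genes differed from each other. APE1, for aminopeptidase I, had 389 and 332 in K42A, 610 and 622 in K42Q, 258 and 265 in K42L, and 176, 184 and 169 in wild type. No group overlapped another, and wild type was the lowest on this gene alone among the members. APE1 rose by 1.03 ± 0.08 in K42A (adjusted p = 2.93e-05), or 2.05-fold (1.80 to 2.32). In K42Q it rose by 1.81 ± 0.08 (adjusted p = 7.09e-07), or 3.50-fold (3.09 to 3.98). It was also the only member called in K42L, at 0.57 ± 0.08 (adjusted p = 0.024), or 1.49-fold (1.31 to 1.69). The values within the batch were 1.03, 1.81 and 0.57 for K42A, K42Q and K42L, and all were called. The K42L call ended without either K42L array (adjusted p = 0.3 and 0.287), without either K42Q array (adjusted p = 0.0582 and 0.0584), or without wild-type replicate 2 (adjusted p = 0.0581) or 3 (adjusted p = 0.113). The value itself lay between 0.54 and 0.60 in these fits. K42A lay below K42Q by 0.78 ± 0.09 (adjusted p = 0.00238) and above K42L by 0.46 ± 0.09 (adjusted p = 0.00354).

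APE3, for the vacuolar aminopeptidase Y, had 1561 and 1513 in K42A, 1566 and 1635 in K42Q, 1768 and 1621 in K42L, and 1752, 1507 and 1588 in wild type. Each mutant overlapped wild type, while both K42A arrays lay below those of K42Q and K42L. Its values were -0.07 ± 0.08 in K42A, -0.01 ± 0.08 in K42Q and 0.07 ± 0.08 in K42L, with adjusted p of 0.534, 0.931 and 0.688. The 95% confidence intervals of the fold change were 0.835 to 1.09 in K42A, 0.870 to 1.13 in K42Q and 0.920 to 1.20 in K42L. APE3 was the brightest member, and its sign in K42A turned with the scaling: quantile gave 0.18 (adjusted p = 0.00302) and cyclic loess 0.19 (adjusted p = 0.00334), and both called it higher. Cyclic loess also called it higher in K42Q, at 0.11 (adjusted p = 0.0359).

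In K42A and K42Q the tested inhibitor genes differed from wild type by more than the enzymes they block, except PBI2 in K42A. TFS1, for the carboxypeptidase Y inhibitor, had 499 and 494 in K42A, 814 and 911 in K42Q, 170 and 142 in K42L, and 165, 206 and 189 in wild type. K42A and K42Q stood apart from each other and from wild type, while K42L overlapped wild type. TFS1 rose by 1.42 ± 0.11 in K42A (adjusted p = 2.81e-05), or 2.67-fold (2.25 to 3.17). It rose by 2.21 ± 0.11 in K42Q (adjusted p = 1.29e-06), or 4.63-fold (3.90 to 5.49), the largest change among the tested members. Within the batch the values were 1.33 and 2.38. K42A lay below K42Q by 0.79 ± 0.12 (adjusted p = 0.00488), a call that ended narrowly without K42Q replicate 2 (-0.71, adjusted p = 0.0515). K42L was at -0.26 ± 0.11 (adjusted p = 0.263).

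PBI2, for the proteinase B inhibitor, which also takes part in vacuole fusion, had 231 and 211 in K42A, 477 and 441 in K42Q, 160 and 180 in K42L, and 224, 243 and 234 in wild type. The K42Q arrays were far above all others, the K42A arrays overlapped wild type, and the K42L arrays lay below it. In K42Q PBI2 rose by 0.98 ± 0.08 (adjusted p = 3.9e-05), or 1.97-fold (1.73 to 2.24), and by 1.04 within the batch. With spike-ins across the batches PBI2 was at 0.54 in K42Q and was not called (limma adjusted p = 0.312). In K42A it was at -0.08 ± 0.08 (adjusted p = 0.457), with a 95% confidence interval of 0.829 to 1.08 for the fold change, and at -0.11 within the batch. The difference of K42A from K42Q, -1.06 ± 0.09 (adjusted p = 0.000772), was the largest between these mutants among the tested members, and was -1.15 blocked on batch. With spike-ins across the batches this difference was -0.17 and was not called (limma adjusted p = 0.67). In K42L the value of -0.46 ± 0.08 lay just past the threshold (adjusted p = 0.052), and PBI2 was called lower there under median centring, cyclic loess, no filter, robust hyperparameters and without wild-type replicate 1.

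PAI3, for the proteinase A inhibitor, had 20.6 and 30.5 in K42A, 38.2 and 29.5 in K42Q, 6.1 and 6.2 in K42L, and 6.7, 11.7 and 7.2 in wild type. Its mean lay below the signal of 87.0 needed for the test. It passed the 95th percentile of background of its array, 4.4 to 9.6, on 8 of 9 arrays, with wild-type replicate 3 below it. The K42A and K42Q arrays were all above the wild-type arrays, and the K42L arrays were below them. In a fit with no filter the differences were 1.60 ± 0.29 in K42A (adjusted p = 0.0018) and 2.02 ± 0.29 in K42Q (adjusted p = 0.000552), and -0.43 ± 0.29 in K42L (adjusted p = 0.46). In that fit 30.8% of all genes were called higher in K42A and 28.7% in K42Q, beside 22.6% and 21.4% of the genes that passed the filter. A call in this direction was therefore common among dim genes. Signals this near the background make the sizes uncertain.

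**Figure D2:**
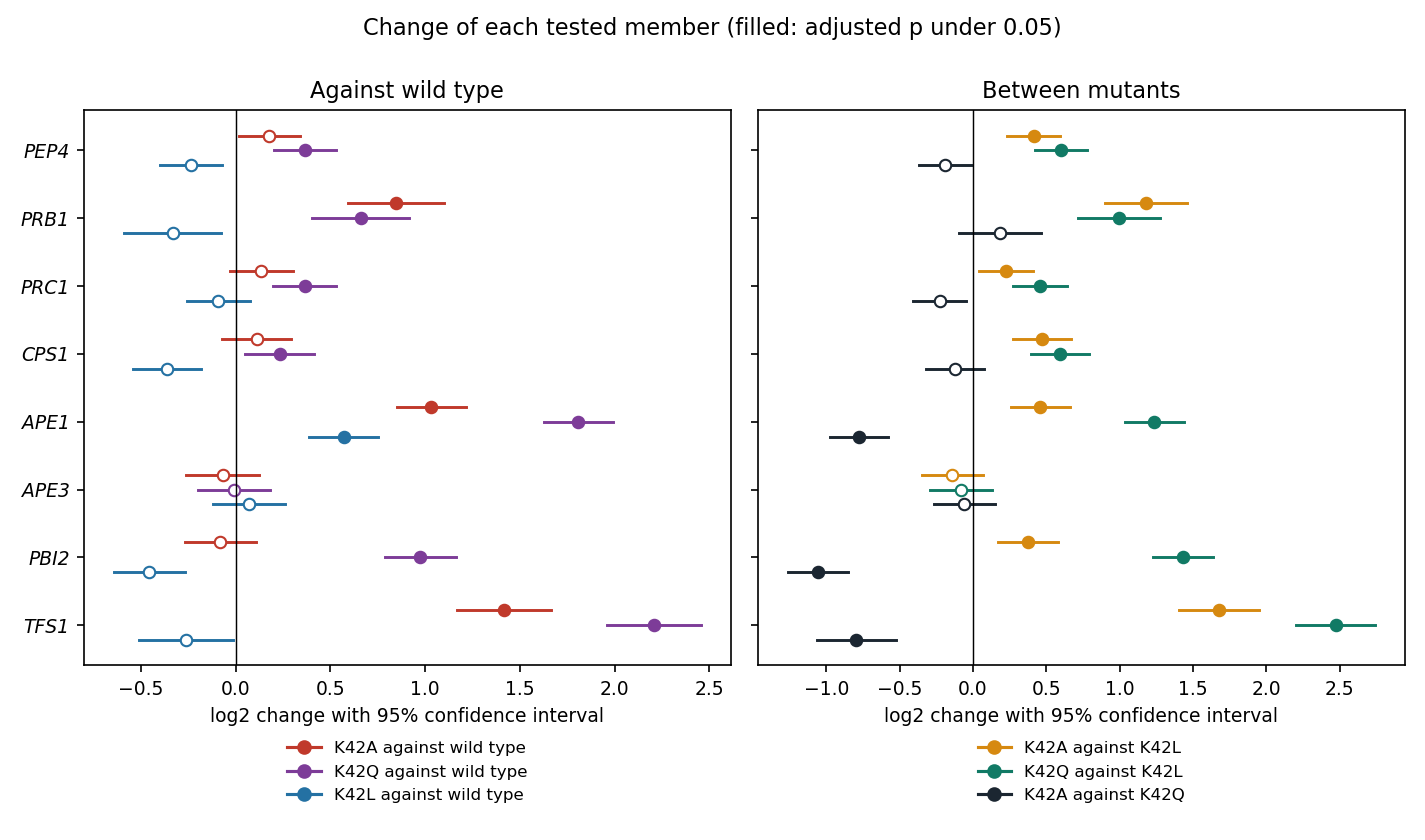
Log2 change of the 8 tested genes (horizontal axes) with 95% confidence intervals, each mutant against wild type on the left and mutant against mutant on the right; filled points were called at an adjusted p under 0.05. Against wild type, TFS1 in K42Q (2.21) and in K42A (1.42) and APE1 in K42Q (1.81) lie farthest to the right, and PBI2 shows the widest gap between K42A (-0.08) and K42Q (0.98).

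Counted over the tested members, 3 of 8 were called higher and 0 lower in K42A, where 22.6% of all tested genes were called higher and 19.7% lower, 42.4% in all. Of the 6 peptidase genes 2 rose, and of the 2 tested inhibitor genes 1 rose. The median change of the 8 was 0.16, beside -0.01 over all genes. With quantile scaling the count was 6, where 18.0% of all genes were higher and 24.2% lower, and with cyclic loess it was 6, where the shares were 19.3% and 17.2%. With spike-ins scaled inside each batch it was 5, where the shares were 30.2% and 4.67%. In K42Q 7 of 8 were called higher and 0 lower, where the shares over all genes were 21.4% higher and 18.2% lower, 39.6% in all. The 7 were 5 of 6 peptidase genes and both inhibitor genes, and the median was 0.51, beside 0.00039 over all genes. With spike-ins across the batches, which put the median of all genes at -0.43, 2 were called higher. The shares of all genes there were 1.03% higher and 1.71% lower. In K42L 1 of 8 was called higher and 0 lower, where 0.318% of all genes were higher and 0.343% lower, 0.661% in all, and the median was -0.25, beside 0.01.

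The K42L calls turned on wild-type replicate 1. Without that array, PEP4 (-0.29, adjusted p = 0.00329), PRB1 (-0.46, adjusted p = 0.000242), CPS1 (-0.41, adjusted p = 0.00193), PBI2 (-0.49, adjusted p = 0.00129) and TFS1 (-0.35, adjusted p = 0.0125) were all called lower, which made 5. In that fit 16.9% of all genes were called higher and 16.5% lower. With all 9 arrays the values had been -0.24, -0.33, -0.36, -0.46 and -0.26 in the same order. The SE fell without wild-type replicate 1, from 0.07 to 0.06 for PEP4 and from 0.11 to 0.06 for PRB1. The added calls therefore do not measure a shift of the values alone. Against that array alone, the wild-type array of the same batch, the values were -0.13, -0.07, -0.27, -0.40 and -0.09, and none was called. Batch and the choice of wild-type array cannot be told apart in this comparison.

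The mutants were also set against each other. K42Q against K42L lies within 1 batch, and there 7 of 8 members were called higher in K42Q and 0 lower, where 16.7% of all genes were higher and 14.8% lower, 31.5% in all. TFS1 was higher in K42Q by 2.47 ± 0.12, PBI2 by 1.43 ± 0.09, APE1 by 1.24 ± 0.09 and PRB1 by 0.99 ± 0.12. PEP4, CPS1 and PRC1 differed by 0.60, 0.59 and 0.46, and APE3 by -0.08 ± 0.09 (adjusted p = 0.537). No K42A array shares a batch with K42L or K42Q, so K42A against either lies wholly across batches. Blocking on batch corrects for this through the wild-type arrays alone. K42A against K42L also gave 7 higher and 0 lower, where the shares of all genes were 22.1% and 21.9%, 44.0% in all. These ran from PRC1 at 0.23 ± 0.08 (adjusted p = 0.0472) to TFS1 at 1.68 ± 0.12. The PRC1 call was lost in 12 of 23 alternatives, among them median centring (0.15, adjusted p = 0.175), no intensity trend (adjusted p = 0.0523), the replicate block (adjusted p = 0.0983), the batch block (0.12, adjusted p = 0.407) and the fits without any single array except wild-type replicate 1 (adjusted p of 0.056 to 0.247). PBI2 was no longer called blocked on batch (0.28, adjusted p = 0.111), without K42A replicate 1 (adjusted p = 0.0639) or without K42L replicate 1 (adjusted p = 0.0988). K42A against K42Q gave 0 higher and 3 lower, the genes APE1, PBI2 and TFS1, where 9.96% of all genes were higher and 8.15% lower, 18.1% in all. Blocked on batch PEP4 (-0.35) and PRC1 (-0.34) were also lower, which made 5, where 9.91% of all genes were lower.

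Set against the enzyme it blocks, each inhibitor showed a pattern of its own. The difference of log2 signal between inhibitor and enzyme was taken on each array and compared between groups, which shows unequal change and not relative amounts. PBI2 relative to PRB1 was at -0.86 and -0.996 on the K42A arrays, at 0.37 and 0.26 on the K42Q arrays, and between -0.25 and 0.20 on the K42L and wild-type arrays, all counted from the wild-type mean. The mean change in K42A was -0.93 (-0.83 within the batch), that is 0.526 of the wild-type ratio. In K42Q it was 0.32 (0.11 within the batch). TFS1 relative to PRC1 changed by 1.28 in K42A and 1.85 in K42Q, or 2.43-fold and 3.60-fold, and the arrays did not overlap with wild type. PAI3 relative to PEP4 changed by 1.42 and 1.66, with PAI3 near the background. In K42L the 3 pairs changed by -0.12, -0.17 and -0.19, with overlap, and within the batch by -0.33, -0.07 and 0.0074. By an exact two-sided permutation test over arrays the changes in K42A had p = 0.1 for each pair, which is the smallest that 2 arrays against 3 allow, and in K42Q p = 0.2 for PBI2 with PRB1 and p = 0.1 for the other pairs.

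**Figure D3:**
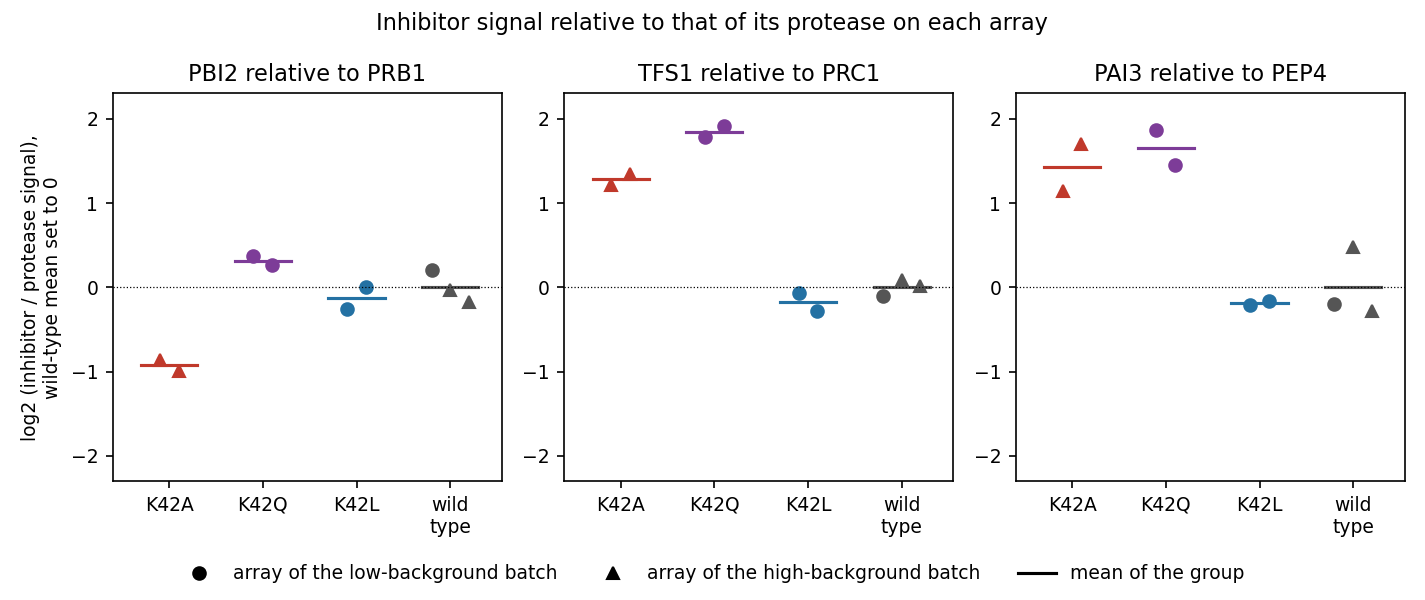
Log2 ratio of inhibitor signal to the signal of the enzyme it blocks on each array (vertical axes, mean of wild type set to 0), by group, with markers for the batches and bars for group means. PBI2 relative to PRB1 is low on both K42A arrays (-0.86 and -0.996) and above wild type on both K42Q arrays, while TFS1 relative to PRC1 and PAI3 relative to PEP4 are high in both mutants.

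Over the 9 arrays, which come from 4 groups and 2 batches, the log2 signals of the 8 tested members were compared with each other as a description. The 21 pairs without APE3 had Pearson correlations of 0.491 to 0.945, and the 7 pairs with APE3 had -0.635 to -0.184. PRB1 followed PEP4 (0.895) and TFS1 (0.893) more closely than its own inhibitor gene PBI2 (0.576). PRC1 followed TFS1, the gene of its inhibitor, at 0.945.

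For each member the pair of genes most like it among all tested genes was also taken, with correlations of 0.949 to 0.996 over the 9 arrays. For TFS1 these were HBN1 (YCL026C-B) at 0.996 and the small heat shock protein gene HSP26 (YBR072W) at 0.995. HSP26 changed by 1.63 in K42A, 2.46 in K42Q and -0.47 in K42L. For PRB1 they were FMS1 (YMR020W), for a polyamine oxidase, at 0.994 and AMS1 (YGL156W), for the vacuolar alpha-mannosidase, at 0.988. For PEP4 they were STI1 (YOR027W) and AHA1 (YDR214W), both for co-chaperones of Hsp90, at 0.989 and 0.988. APE1 was nearest to GCG1 (YER163C), for a glutathione-degrading enzyme, at 0.992 and to DIC1 (YLR348C), for the mitochondrial dicarboxylate carrier, at 0.988. PBI2 was nearest to VPS13 (YLL040C) at 0.967 and DCS1 (YLR270W) at 0.959, and these changed in K42A by -0.02 and 0.13 and in K42Q by 0.38 and 0.58. PRC1 was nearest to TOM71 (YHR117W) and MRPL6 (YHR147C) at 0.975 and 0.968, and CPS1 to BST1 (YFL025C) and the glucose-repressed alcohol dehydrogenase gene ADH2 (YMR303C) at 0.961 and 0.960. APE3 was nearest to EFT2 (YDR385W), for elongation factor 2, and the cell wall gene CWP2 (YKL096W-A), at 0.951 and 0.949.

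Other genes of the vacuole were taken from lists, and none of their genes was called in K42L. Their counts stand beside 22.6% of all genes higher and 19.7% lower in K42A, and 21.4% and 18.2% in K42Q. Of 8 tested vacuolar hydrolases outside the set (12 listed), 4 rose and 0 fell in K42A (median 0.20), and 2 rose and 1 fell in K42Q (median 0.06). In K42Q quantile scaling gave 1 and 1 (17.1% and 23.1% of all genes) and cyclic loess 3 and 0 (19.6% and 17.9%). AMS1 had 270.5 and 301 in K42A, 252.5 and 226 in K42Q, 82.4 and 84.9 in K42L, and 105, 144 and 132 in wild type. It rose by 1.18 ± 0.13 in K42A and by 0.92 ± 0.13 in K42Q, and like APE1 its product reaches the vacuole from the cytosol with the autophagy machinery. APE4, for an aspartyl aminopeptidase that takes the same route, rose by 0.49 ± 0.11 in K42A, and ECM38, for the vacuolar gamma-glutamyltransferase, by 0.38 ± 0.09. In K42Q DAP2, for the vacuolar dipeptidyl aminopeptidase, rose by 0.30 ± 0.09 (0.20 blocked on batch, adjusted p = 0.137), and ECM14 fell by 0.28 ± 0.06.

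Autophagy genes were mostly too dim, with 11 of 27 tested. Of these 8 rose and 0 fell in K42A (median 0.58, and 0.59 within the batch) and 6 rose and 0 fell in K42Q (median 0.30, and 0.34 within the batch). ATG8, for the ubiquitin-like protein on autophagosome membranes, had 273 and 327 in K42A, 218 and 186 in K42Q, 99.9 and 104 in K42L, and 130.1, 113 and 121 in wild type. It rose by 1.30 ± 0.11 in K42A and by 0.73 ± 0.11 in K42Q. ATG22, for a vacuolar exporter of amino acids, rose by 0.85 ± 0.08 in K42A, and ATG10 by 0.81 ± 0.12 in K42A and 0.50 ± 0.12 in K42Q. ATG5 rose by 0.44 ± 0.11 in K42Q. K42A exceeded K42Q for 5 of the 11 genes and was lower for 0, beside 9.96% and 8.15% of all genes. Blocked on batch these counts were 3 and 1, beside 8.74% and 9.91% of all genes. With spike-ins across the batches the median of all genes in K42Q was -0.43, and that of the autophagy genes was -0.13. The hydrolases (-0.38) and the sorting genes named next (-0.31) also had medians below 0 and above that of all genes. Of these lists 0 genes were called there, where 1.03% of all genes were higher and 1.71% lower.

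Among 24 tested genes for the sorting of hydrolases to the vacuole (29 listed), 9 rose and 2 fell in K42A (median 0.16) and 8 rose and 1 fell in K42Q (median 0.12). Blocked on batch 10 rose and 5 fell in K42A, where 27.2% of all genes were higher and 27.6% lower. VAM6, for a subunit of the tethering complex at the vacuole, rose by 0.58 ± 0.09 in K42A and 0.74 ± 0.09 in K42Q. VPS8, for a subunit of the endosomal tethering complex, rose by 0.66 ± 0.10 and 0.58 ± 0.10. PEP12, for the endosomal syntaxin, rose by 0.75 ± 0.19 in K42A (0.98 blocked on batch), and VPS16, shared by both tethering complexes, by 0.54 ± 0.11 in K42Q. With quantile scaling 6 rose and 4 fell in K42A and 6 rose and 3 fell in K42Q. The shares of all genes there were 18.0% higher and 24.2% lower in K42A, and 17.1% and 23.1% in K42Q. The sorting genes named here are dim, and dim genes were called higher more often than bright ones in both mutants.

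For the proton pump that acidifies the vacuole, the genes called were all lower. Of 18 tested genes 0 rose and 10 fell in K42A (median -0.25, and -0.21 within the batch), and 0 rose and 8 fell in K42Q (median -0.17, and -0.23 within the batch). VMA21, for a factor that assembles the pump, fell by 0.37 ± 0.06 in K42A and by 0.59 ± 0.06 in K42Q. VMA13 and VMA5 fell by 0.37 ± 0.08 and 0.33 ± 0.07 in K42A, and VMA11 and VMA9 by 0.44 ± 0.08 and 0.37 ± 0.08 in K42Q. These genes are bright, and the counts depended on the scaling. In K42A 3 fell under quantile and under cyclic loess scaling, where 24.2% and 17.2% of all genes fell. With median centring 14 fell, where 29.3% of all genes did. With spike-ins scaled inside each batch 0 fell, where 4.67% of all genes did. In that setting the median of all genes was 0.14 and that of the pump -0.10. In K42Q 7 fell with quantile or cyclic loess scaling, where 23.1% and 17.9% of all genes fell. With the within-batch spike-ins 1 rose and 2 fell in K42Q, where 31.8% of all genes rose and 5.85% fell. Spike-ins across the batches put the median of all genes at 0.44 in K42A and -0.43 in K42Q. The signs of VMA21, VMA13, VMA5, MKC7 and AAP1 in K42A and of DAP2 in K42Q turned there.

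Other proteolytic genes did not share one direction. Of 33 proteasome genes 1 rose and 0 fell in K42A, the regulator gene RPN4 at 0.25 ± 0.09, where 22.6% of all genes rose and 19.7% fell. In K42Q 0 rose and 6 fell, with RPN13 down by 0.35 ± 0.06. There 21.4% of all genes rose and 18.2% fell, so the falls were close to the share of all genes. The split turned with the scaling, and the shares of all genes higher and lower are given in brackets. With quantile scaling 8 proteasome genes rose and 0 fell in K42A (18.0% and 24.2%) and 3 rose and 1 fell in K42Q (17.1% and 23.1%). With cyclic loess 6 rose and 0 fell in K42A (19.3% and 17.2%) and 4 rose and 1 fell in K42Q (19.6% and 17.9%). With median centring 0 rose and 3 fell in K42A (18.0% and 29.3%), where RPN4 was not called (0.17, adjusted p = 0.146). In K42Q median centring gave 0 higher and 8 lower (18.3% and 21.9%). With the within-batch spike-ins 4 rose and 0 fell in K42A (30.2% and 4.67%) and 1 rose and 0 fell in K42Q (31.8% and 5.85%). Of 12 tested cytosolic and secretory peptidase genes 4 rose and 2 fell in K42A, with AAP1 down by 0.39 ± 0.06, and 3 rose and 0 fell in K42Q, with LAP3, for the cysteine aminopeptidase bleomycin hydrolase, up by 0.48 ± 0.08. Blocked on batch 4 rose and 4 fell in K42A (27.2% and 27.6%), and with quantile scaling 1 rose and 2 fell in K42Q (17.1% and 23.1%).

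Homologs of the members outside the set had 6 tested of 10, of which 1 rose and 3 fell in K42A and 0 rose and 2 fell in K42Q. The aspartyl protease genes related to PEP4 split: YPS1, of the cell surface, rose by 0.53 ± 0.08 in K42A, while its relative MKC7 fell by 0.35 ± 0.06 there and by 0.38 ± 0.06 in K42Q. BAR1, for the protease that a cells secrete against alpha factor, fell by 0.72 ± 0.07 in K42A and 0.58 ± 0.07 in K42Q. YLR179C, a gene similar to TFS1 that lies next to it on the chromosome in the R64 assembly, is named here after its values were seen. It had 1488 and 1447 in K42A, 1461 and 1605 in K42Q, 1842 and 1698 in K42L, and 1925, 1666 and 1781 in wild type. All K42A and K42Q arrays were below wild type, where TFS1 was above it. YLR179C was called lower in K42A (-0.29, adjusted p = 0.0265) and not in K42Q (-0.22, adjusted p = 0.0681).

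**Figure D4:**
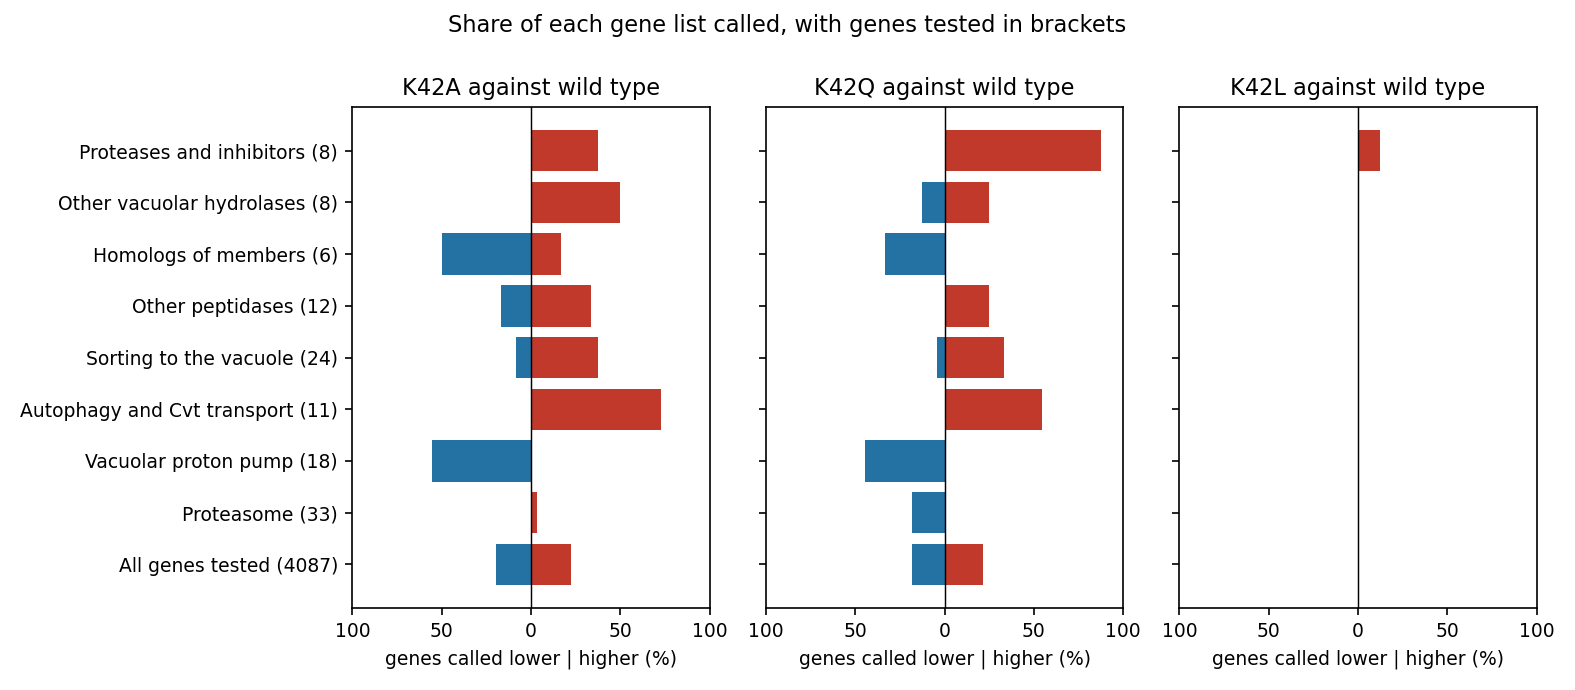
Share of tested genes called higher (red, to the right) and lower (blue, to the left) at an adjusted p under 0.05, in percent, for the 8 tested members, the lists of related genes and all 4087 genes, with the number tested in brackets, in each mutant against wild type. With the deposited scaling, members in K42Q and autophagy genes in K42A and K42Q lean to the higher side. Pump genes lean to the lower side in both mutants, and K42L shows 1 member, APE1. In K42A 3 of 8 members were higher and 0 lower, beside 22.6% and 19.7% of all genes. Sorting genes (9 of 24 higher) and other hydrolases (4 of 8) also leaned to the higher side in K42A.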

How the data were processed

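Per the submitters' processing notes, GCOS 1.4 and MAS5 produced the signals. The deposited values are intensities on a linear scale, 1 column per array. Their scaling target and MAS5 version are not stated in these sources. They were taken to log2 as deposited, after 126 zeros among 98352 values were replaced by 0.1. Of 10928 probe sets, 5498 named 1 S. cerevisiae gene, and the brightest stood for its gene. Genes whose mean log2 signal fell below the 25th percentile, a signal of 87.0, were left out. The 1747 probe sets of another yeast species gave the background, whose 2 clusters were taken as batches, and 18 hybridisation control probe sets gave the spike-in scaling.

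The model, from limma 3.58.1 (R 4.3.3), had a mean per group over 9 arrays and an intensity trend, and was tested on simulated data. limma's adjusted p-values cover all 4087 genes. Figures used matplotlib 3.10.9. Members, lists, comparisons and alternatives were chosen with earlier results of these data known. All members were named, with the pair of genes most like each, and genes of each list came from the 3 largest changes among its called genes in K42A and in K42Q. No sequences were used here.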

Additional observations from a re-analysis of the deposited data

How the results depend on the processing

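Of 6 comparisons, the counts of called members moved by over 1.5 times as follows, and the cause was not tested unless the setting itself shows it. In K42A against wild type the count called higher was 6 with quantile scaling, 6 with cyclic loess and 5 with spike-ins scaled within the batch. The shares of all genes called higher were 18.0%, 19.3% and 30.2% in turn. In K42Q against wild type the count called higher was 2 with spike-ins across the batches, where 1.03% of all genes were higher. In K42L against wild type it was 0 with spike-ins across the batches, in a fit of the compared groups alone and with the replicate block. The shares of all genes called higher there were 0.0489%, 0.0% and 0.0%. The count called lower in K42L was 1, each time PBI2, with median centring, cyclic loess, no filter and robust hyperparameters. The shares of all genes called lower were 0.416%, 0.343%, 0.385% and 0.44% in turn. In K42Q against K42L the count called higher was 3 with spike-ins across the batches, where 2.35% of all genes were higher. In K42A against K42Q the count called higher was 1 with quantile scaling (13.2% of all genes higher) and 2 with spike-ins across the batches (59.3%). The count called lower was 0 with those spike-ins (0.0734% of all genes lower) and 5 with batch as a block (9.91%). Without wild-type replicate 1, 1 was higher and 5 were lower in this comparison, beside 21.4% and 20.7% of all genes. Leaving out 1 array at a time, which assumes that a lone array varies like the other groups, gave 3 higher in K42A, 6 to 7 in K42Q, and 0 to 1 higher and 0 to 5 lower in K42L, each against wild type. It gave 5 to 7 higher for K42A and 7 for K42Q against K42L, and 0 to 1 higher and 2 to 5 lower for K42A against K42Q.

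Signs turned mostly for APE3, which passed no test with the deposited scaling. It was called higher in K42A against wild type with quantile and cyclic loess scaling. In K42Q against wild type it was called higher with cyclic loess, which made 8 members, where 19.6% of all genes were higher. It was also called higher in K42A against K42L with quantile, cyclic loess and spike-ins across, and in K42A against K42Q with quantile and spike-ins across. Against wild type, APE3 in K42A was at 0.18 (quantile), 0.19 (cyclic loess), 0.084 (spike-ins within the batch) and 0.38 (spike-ins across). APE3 in K42Q was at 0.031 (quantile), 0.11 (cyclic loess), 0.15 (spike-ins within the batch), and between -0.060 without wild-type replicate 2 and 0.049 without wild-type replicate 1, with 0.021 without K42Q replicate 1. APE3 in K42L was at -0.049 (batch as a block, or only the arrays of its batch), -0.012 (quantile) and -0.48 (spike-ins across). For K42A against K42L it was at 0.040 (batch as a block), 0.16 (cyclic loess), 0.19 (quantile) and 0.86 (spike-ins across). For K42A against K42Q it was at 0.12 (batch as a block), 0.079 (cyclic loess), 0.15 (quantile) and 0.83 (spike-ins across). For K42Q against K42L it was at 0.080 (cyclic loess), 0.043 (quantile) and 0.033 (either spike-in setting). PBI2 in K42A against wild type was at 0.072 with spike-ins within the batch and 0.37 across. With spike-ins across the batches K42Q against wild type gave -0.067 for PEP4, -0.070 for PRC1 and -0.20 for CPS1. The same setting for K42A against K42Q gave 0.70 for PEP4, 0.66 for PRC1, 0.76 for CPS1, 0.11 for APE1 and 0.089 for TFS1. PRB1 in that comparison was at -0.21 with batch as a block.

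The labels number the cultures in each group. Between same-numbered cultures, deviations from the group mean had correlations of -0.298 to 0.178. With 2 arrays in each mutant group these deviations mirror each other, so they cannot settle whether the numbers mark pairs. With the replicate block, 3 members were called higher in K42A, 6 in K42Q and 0 in K42L, where APE1 was at 0.54 (adjusted p = 0.158). Over all genes the block gave 746 higher and 545 lower in K42A, 634 and 497 in K42Q, and 0 and 1 in K42L, against 925 and 807, 873 and 745, and 13 and 14 without it. With 2 arrays in each mutant group and PAI3 near the background, small changes stay beyond what these arrays resolve.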
